A study of Mus musculus with 6 samples.

Results

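This account follows 37 genes of the urea cycle and of amino acid breakdown in liver, compared between mice of the substrains Balb/c and Balb/cBy. They were chosen by name from a list of pathway enzymes, with earlier results of these data known. Each was read from the probe set that carried only its symbol. Of several such probe sets, the brightest on average was taken. This gave values for 35 of the 37 genes, among 22180 genes tested in all. Gls2, a liver glutaminase, and Sds, serine dehydratase, were not analysed here. The 6 arrays hold liver RNA of male mice, 3 of the strain Balb/c and 3 of the strain Balb/cBy. All mice were 20 weeks old, were housed singly, and had eaten a fatty diet (58% of energy from fat) for the last 12 weeks. Both substrains come from one albino inbred line, and Balb/cBy is known to lack a working Acads, the gene for short-chain acyl-CoA dehydrogenase, an enzyme of mitochondrial fat oxidation. With a single diet, the values compare strains and cannot describe a response to feeding.

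The liver takes up amino acids after a meal and during a fast, moves their nitrogen onto glutamate and aspartate by transamination, and turns ammonia and aspartate nitrogen into urea. The urea cycle starts in hepatocyte mitochondria and ends in the cytosol, and its enzymes are most abundant around the portal veins. The carbon skeletons of the amino acids enter gluconeogenesis, ketone bodies or the tricarboxylic acid cycle through separate routes for each amino acid family. Several of these enzymes are induced by glucagon and glucocorticoids and by protein intake.

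All values are log2 values made with RMA, a method that corrects background, equalises the arrays and summarises the probes of a set. Differences are Balb/cBy minus Balb/c on the log2 scale, fitted with limma over all 22180 genes, with the moderated standard error (SE) and a pointwise 95% interval. Array medians lay between 7.66 and 7.74. Hepatocyte markers such as Alb were abundant in every array, and the log2 of their summed level ran from 16.52 to 16.62 in Balb/c and from 16.56 to 16.62 in Balb/cBy. In whole liver RNA, fewer cells of a type and less RNA per cell cannot be told apart. For arrays, the number of mice limits the precision.

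Transcripts of the urea cycle and of amino acid breakdown stood at similar mean levels in both strains. Of the 35 genes, 18 had a difference above 0 (49.1% of all genes) and 17 below 0, with a median of 0.01 against -0.003 over all genes tested. However, 33 of the 35 lie in the upper quartile (25%) of mean level. There 3544 of 5545 genes had a difference above 0, with a median of 0.05. The differences of the 35 genes ran from -0.39 for Amdhd1 to 0.33 for Got1. No gene passed an adjusted p of 0.05 in limma, which was the case for 0% of all genes as well, and 0 of the 35 had an unadjusted p under 0.05, where 3.76% of all genes did. The groups were free of overlap for 1 of the 35 genes, Amt, against 7.83% of all genes, or 3.51% for genes lower in Balb/cBy. For 28 of the 35 genes the difference between the strains was smaller than the range of the 3 mice within either strain. This count was not made over all genes. By a related measure, the difference was below the pooled SD within strains for 71.4% of the 35 genes and 74.4% of all genes. Among genes in the upper quartile (25%) of mean level that share was 70.4%. The 95% interval lay within -1 and 1 for all 35 genes, and for 21812 of all 22180 genes. It lay within -0.5 and 0.5 for 19 of the 35 genes. That held for 17923 of all 22180 genes and for 3516 of the 5545 genes in the upper quartile of mean level. A doubling of the measured mean value, which is 1 on this scale, thus lies outside the interval of each of the 35 genes. For Ass1 and Bhmt this cannot be carried over to the transcript. Their probe sets lay at percentiles 52.2 and 31.6 of all gene means, and how well they read the genes is uncertain.

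**Figure D1:**
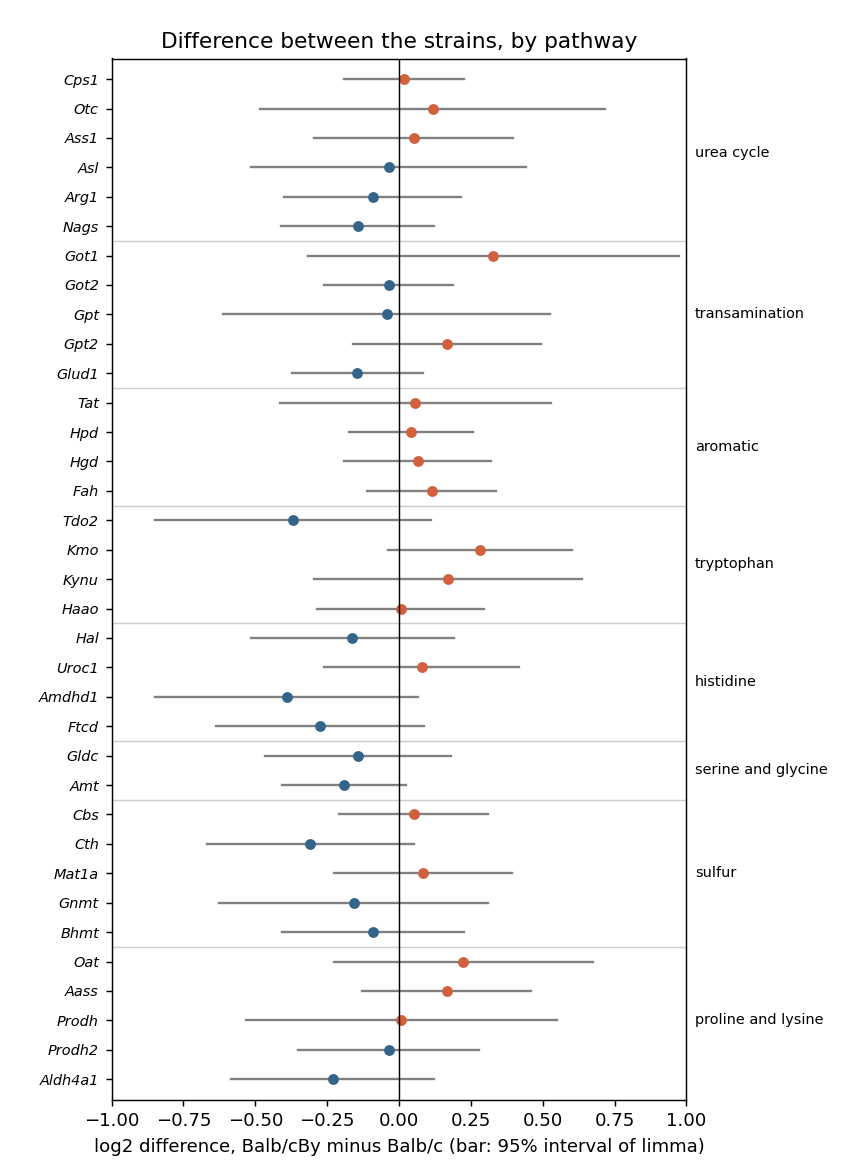
Log2 difference between Balb/cBy and Balb/c (x axis) for each of the 35 genes (y axis), grouped by pathway; points are the differences, red above 0 and blue below 0, and grey bars are the 95% intervals of limma. Every interval includes 0, from Amdhd1 at -0.39 to Got1 at 0.33.

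Of the urea cycle genes, 3 of 6 had a difference above 0 and 3 below, with a median of -0.01. Some intervals were wide, from -0.48 to 0.72 for Otc and from -0.51 to 0.44 for Asl. Cps1 encodes carbamoyl phosphate synthetase, the mitochondrial enzyme by which ammonia enters the cycle. Its values were 13.18, 13.17 and 13.28 in Balb/c and 13.14, 13.29 and 13.25 in Balb/cBy, all within a narrow band. Its difference was 0.02 (SE 0.09), with an interval from -0.19 to 0.23. Nags makes N-acetylglutamate, the activator that carbamoyl phosphate synthetase requires. Nags stood at 10.13, 10.06 and 9.77 in Balb/c and at 9.81, 9.79 and 9.92 in Balb/cBy, a difference of -0.14 (SE 0.12). Balb/c replicate 3 was the lowest of its 6 values, below all Balb/cBy arrays.

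Arg1, the arginase that releases urea, had values of 12.27, 12.18 and 12.04 in Balb/c and 11.90, 11.99 and 12.34 in Balb/cBy, a difference of -0.09 (SE 0.13). Balb/cBy held both the lowest and the highest value. Ass1, argininosuccinate synthase, which joins citrulline and aspartate, was at 7.80, 8.07 and 8.33 in Balb/c and 7.98, 8.31 and 8.06 in Balb/cBy, a difference of 0.05 (SE 0.15). Ass1 is known as an abundant liver transcript, yet its probe set lay at percentile 52.2 of all gene means, so how well this set reads the gene is uncertain. Otc, ornithine transcarbamylase, spread most within a strain, from 11.21 to 12.41 in Balb/c and from 11.80 to 12.08 in Balb/cBy. Its difference was 0.12 (SE 0.26). Asl, argininosuccinate lyase, differed by -0.04 (SE 0.21) and ran from 10.68 to 11.44 in Balb/c.

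Of the genes for transamination and for glutamate, 2 of 5 had a difference above 0, with a median of -0.04. Glud1 encodes glutamate dehydrogenase, which frees ammonia from glutamate in mitochondria. Its values were 12.59, 12.48 and 12.74 in Balb/c and 12.42, 12.49 and 12.47 in Balb/cBy, a difference of -0.14 (SE 0.10), and the groups overlapped by a single array, Balb/c replicate 2. Gpt2, the mitochondrial alanine aminotransferase, stood at 11.57, 11.16 and 11.31 in Balb/c and 11.29, 11.62 and 11.63 in Balb/cBy, a difference of 0.17 (SE 0.14). Arrays of each strain lay inside the range of the other. Gpt, the cytosolic form whose protein in serum is a clinical sign of liver injury, differed by -0.04 (SE 0.25), and its Balb/cBy values ran from 9.30 to 10.30. Got1, the cytosolic aspartate aminotransferase, had the largest difference above 0 at 0.33 (SE 0.28). This rested on wide spread, from 9.33 to 10.52 in Balb/c against 9.94 to 10.44 in Balb/cBy, and without Balb/c replicate 3 the difference was 0.02. Got2, the mitochondrial aspartate aminotransferase, differed by -0.04 (SE 0.10).

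The aromatic pathway, which breaks tyrosine down to fumarate and acetoacetate, had 4 of 4 genes above 0, by small amounts, with a median of 0.06. Genes in the upper quartile of mean level had a median of 0.05, close to that value. Fah encodes fumarylacetoacetase, the last enzyme of the route. It stood at 12.59, 12.36 and 12.39 in Balb/c and at 12.54, 12.57 and 12.57 in Balb/cBy, a difference of 0.11 (SE 0.10). Balb/cBy was tight and lay within the Balb/c range. Hgd, homogentisate dioxygenase, had values of 12.87, 12.58 and 12.84 in Balb/c and 12.71, 12.88 and 12.88 in Balb/cBy, a difference of 0.06 (SE 0.11). Hpd, which makes homogentisate, differed by 0.04 (SE 0.09). Tat, the tyrosine aminotransferase induced by glucocorticoids, differed by 0.06 (SE 0.21), and its highest value was 13.62 in Balb/cBy replicate 3. Without that array the difference of Tat was -0.17.

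Genes of tryptophan breakdown differed in both directions, 3 of 4 above 0, with a median of 0.09. Tdo2 encodes tryptophan dioxygenase, the hepatic gate of the kynurenine pathway. Its values were 12.33, 12.06 and 12.87 in Balb/c and 11.78, 12.11 and 12.26 in Balb/cBy, a difference of -0.37 (SE 0.21). The groups overlapped, and without Balb/c replicate 3, the highest array, the difference was -0.14. Kmo, kynurenine monooxygenase, stood at 11.49, 11.34 and 11.83 in Balb/c and at 11.93, 11.89 and 11.69 in Balb/cBy, a difference of 0.28 (SE 0.14). Here Balb/c replicate 3 lay inside the Balb/cBy range, and the difference was 0.42 without it and 0.18 without Balb/c replicate 2. Kynu, kynureninase, differed by 0.17 (SE 0.20), and Haao, which makes the precursor of quinolinate, by 0.01 (SE 0.13).

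Histidine breakdown had a median of -0.22, with 3 of 4 genes below 0. This was the most negative of the 8 pathways with all arrays weighted equally, but without Balb/cBy replicate 1 it was -0.09, against -0.21 for serine and glycine genes. Its enzymes turn histidine to urocanate (Hal), then to imidazolone propionate (Uroc1) and formiminoglutamate (Amdhd1), whose formimino group passes to folate (Ftcd). Because these 4 genes shared the lowest array, and because Amt was the gene without overlap, the 250 bases upstream of their start sites are shown, from RefSeq on build GRCm38.p6. Capitals mark matches to 4 motifs, searched on both strands: CCAAT, the letters of the CCAAT box; TGACG, a part of the cyclic AMP response element; TGATGNAAT, the letters of the element bound by ATF4 with C/EBP factors; and TTGCNNAA, a C/EBP motif. No matches overlapped in these sequences. They are, 5′ to 3′ on the strand of the gene:
Hal, chr10:93488518-93488767, plus strand: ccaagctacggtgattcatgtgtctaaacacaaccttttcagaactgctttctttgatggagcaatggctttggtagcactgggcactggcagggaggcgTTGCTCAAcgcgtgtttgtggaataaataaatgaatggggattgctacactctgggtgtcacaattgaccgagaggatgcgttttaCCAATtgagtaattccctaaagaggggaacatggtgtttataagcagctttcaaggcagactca
Uroc1, chr6:90333039-90333288, plus strand: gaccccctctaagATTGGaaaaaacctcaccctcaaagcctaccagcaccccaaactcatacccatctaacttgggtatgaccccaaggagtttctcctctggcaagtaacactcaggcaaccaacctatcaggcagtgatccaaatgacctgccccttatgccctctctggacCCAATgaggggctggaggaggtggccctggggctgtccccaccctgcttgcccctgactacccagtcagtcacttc
Amdhd1, chr10:93540034-93540283, minus strand: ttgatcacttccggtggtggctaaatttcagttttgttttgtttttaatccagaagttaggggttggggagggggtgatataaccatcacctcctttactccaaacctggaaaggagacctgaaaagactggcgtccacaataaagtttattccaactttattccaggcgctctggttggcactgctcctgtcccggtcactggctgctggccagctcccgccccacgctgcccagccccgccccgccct
Ftcd, chr10:76575398-76575647, plus strand: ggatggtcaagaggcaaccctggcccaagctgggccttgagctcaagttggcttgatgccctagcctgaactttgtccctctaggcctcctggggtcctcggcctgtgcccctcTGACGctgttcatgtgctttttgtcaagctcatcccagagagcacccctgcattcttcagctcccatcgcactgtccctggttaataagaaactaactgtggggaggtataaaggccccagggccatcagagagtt
Amt, chr9:108296655-108296904, plus strand: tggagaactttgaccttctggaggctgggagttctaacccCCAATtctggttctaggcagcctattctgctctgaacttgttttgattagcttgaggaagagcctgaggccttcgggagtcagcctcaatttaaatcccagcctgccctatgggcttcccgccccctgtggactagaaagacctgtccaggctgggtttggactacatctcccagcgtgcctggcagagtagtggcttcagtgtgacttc

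The table of promoters held 28 of the 37 genes. CCAAT or its reverse complement occurred in 15 of these 28 windows, against 33.8% of 32851 promoters of the same length. TTGCNNAA occurred in 4 of 28, in Hal, Hgd, Aass and Prodh2, against 9.56% of all promoters. TGACG occurred in 2 of 28, Ftcd and Aass, against 17.8%, and TGATGNAAT in 0 of 28, against 0.816%. The matches are letters in these windows and say nothing of whether a factor binds there.

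Amdhd1 had the most negative difference of the 35 genes. Its values were 10.76, 10.70 and 11.21 in Balb/c and 10.09, 10.73 and 10.68 in Balb/cBy, a difference of -0.39 (SE 0.20) and an adjusted p of 0.999 in limma. Balb/cBy replicate 1 lay well below all other arrays, and the remaining Balb/cBy arrays lay close to Balb/c replicates 1 and 2. Ftcd stood at 11.27, 11.37 and 11.28 in Balb/c and at 10.68, 11.11 and 11.32 in Balb/cBy, a difference of -0.27 (SE 0.16). Balb/c was tight, while Balb/cBy ran from the lowest value up into the Balb/c range. Without Balb/cBy replicate 1 the differences of Amdhd1 and Ftcd were -0.19 and -0.10. Hal differed by -0.16 (SE 0.15), and by -0.01 without Balb/c replicate 3. Uroc1 differed by 0.08 (SE 0.15). All 4 genes had their lowest value in Balb/cBy replicate 1.

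The glycine cleavage system breaks glycine down in mitochondria and feeds a carbon unit to folate. Amt encodes its aminomethyltransferase and was the gene of the 35 with the smallest unadjusted p. It stood at 9.68, 9.52 and 9.52 in Balb/c and at 9.33, 9.37 and 9.44 in Balb/cBy, so that each Balb/cBy array lay below each Balb/c array. The means were 9.57 ± 0.09 and 9.38 ± 0.06 (SD, n = 3 each), a fold of 0.875, and the difference was -0.19 (SE 0.09). In limma the adjusted p was 0.999, and the exact permutation p was 0.1 (two-sided), the smallest that 3 against 3 allows. Leaving out each array in turn gave differences from -0.22 to -0.14. Gldc, the glycine decarboxylase of the same complex, had values of 10.69, 10.76 and 10.98 in Balb/c and 10.89, 10.41 and 10.69 in Balb/cBy, a difference of -0.14 (SE 0.14). The groups of Gldc overlapped, and without Balb/cBy replicate 2 its difference was -0.02.

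Sulfur amino acid genes lay at a median of -0.09, with 2 of 5 above 0. Cth, cystathionine gamma-lyase, which releases cysteine, stood at 11.57, 11.35 and 11.68 in Balb/c and at 10.93, 11.26 and 11.49 in Balb/cBy, a difference of -0.31 (SE 0.16). Balb/cBy replicate 3 lay inside the Balb/c range, and the difference was -0.16 without Balb/cBy replicate 1. Gnmt, which uses up S-adenosylmethionine by methylating glycine, was at 12.57, 12.50 and 12.28 in Balb/c and at 11.93, 12.16 and 12.78 in Balb/cBy, a difference of -0.16 (SE 0.20). Balb/cBy held both its lowest and its highest value, and without Balb/cBy replicate 1 its difference was 0.02. Mat1a, the liver enzyme that makes S-adenosylmethionine, differed by 0.08 (SE 0.14), and Cbs, which makes cystathionine from homocysteine, by 0.05 (SE 0.11). Bhmt, which returns homocysteine to methionine, differed by -0.09 (SE 0.14). As with Ass1, the probe set of Bhmt lay lower than is usual for this abundant transcript, at percentile 31.6 of all gene means.

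Genes of proline, ornithine and lysine breakdown lay at a median of 0.01, with 3 of 5 above 0. Aldh4a1, which completes the oxidation of proline to glutamate, had values of 11.21, 11.30 and 11.01 in Balb/c and 10.62, 11.05 and 11.17 in Balb/cBy, a difference of -0.23 (SE 0.15). Aass, the enzyme that opens lysine breakdown, stood at 11.24, 10.88 and 11.27 in Balb/c and at 11.16, 11.37 and 11.35 in Balb/cBy, a difference of 0.17 (SE 0.13). Both genes had overlapping groups. Aldh4a1 was at -0.07 without Balb/cBy replicate 1, and Aass at 0.04 without Balb/c replicate 2. Oat, ornithine aminotransferase, which is known to lie around the central veins, was tight in Balb/c, from 11.78 to 11.85, and wide in Balb/cBy, from 11.56 to 12.41, with a difference of 0.22 (SE 0.20). Without Balb/cBy replicate 1 the difference of Oat was 0.47, with an unadjusted p of 0.00309 and an adjusted p of 0.465 in limma, and without Balb/cBy replicate 2 it was 0.05. Replicate 1 was the Balb/cBy array below Balb/c, so its removal widens the difference. The proline dehydrogenase Prodh differed by 0.01 (SE 0.24), and Prodh2, which acts on hydroxyproline, by -0.04 (SE 0.14).

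**Figure D2:**
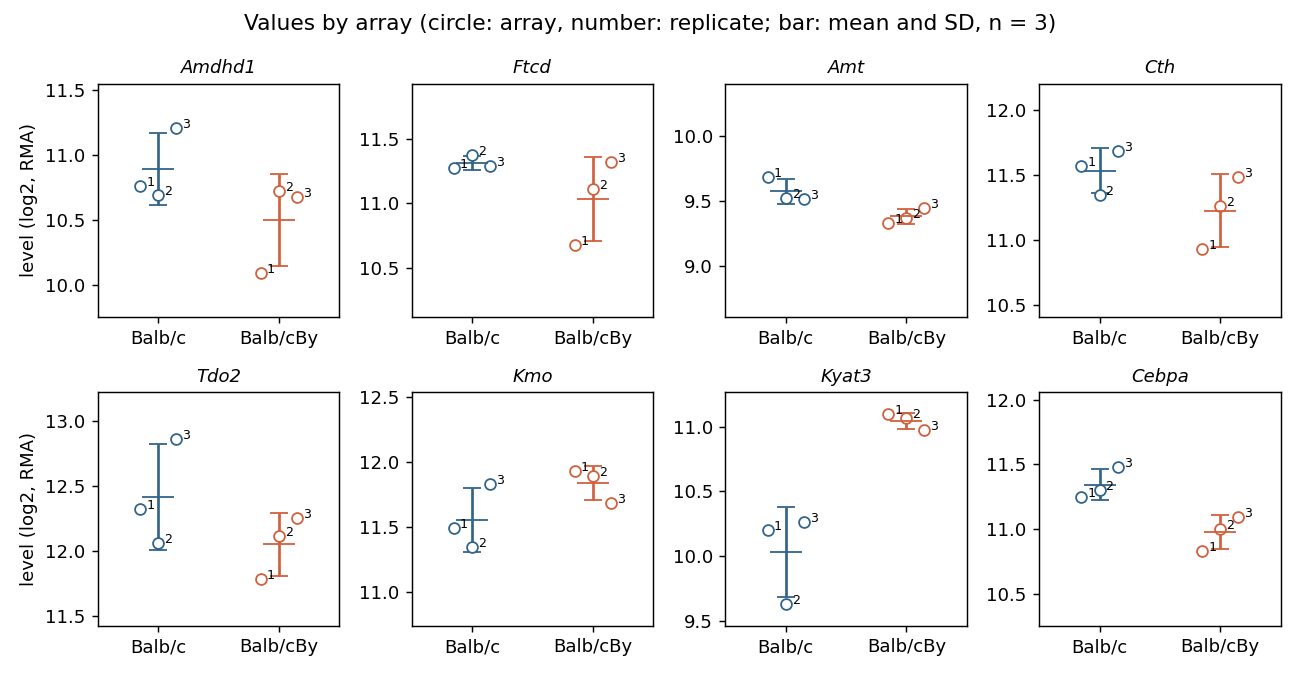
Levels (y axis, log2) by strain for 8 genes; circles are arrays numbered by replicate, and bars are mean and SD (n = 3). Amt, Kyat3 and Cebpa have no overlap between strains, Kyat3 with a difference of 1.01, while Balb/cBy replicate 1 sets much of the spread of Amdhd1, Ftcd and Cth.

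A further 102 measured genes, listed for neighbouring steps, transport or control of these pathways, had 41 differences above 0 and 61 below. Their median was -0.02. The groups did not overlap for 9 of the 102 genes, against 7.83% of all genes. In limma 7 of the 102 had an unadjusted p under 0.05, 6 higher in Balb/cBy (2.59% of all genes) and 1 lower (1.16% of all genes). None passed an adjusted p of 0.05 in limma. The smallest p belonged to Kyat3, a kynurenine aminotransferase that turns kynurenine to kynurenic acid, off the route that Kmo and Kynu serve. Its values were 10.21, 9.63 and 10.26 in Balb/c and 11.09, 11.07 and 10.97 in Balb/cBy. Every Balb/cBy array lay above every Balb/c array. The means were 10.03 ± 0.35 and 11.05 ± 0.06 (SD, n = 3 each), a fold of 2.02 and a difference of 1.01 (SE 0.16), with an adjusted p of 0.281 in limma. Leaving out each array in turn gave differences from 0.81 to 1.13. The gene was read by 1 probe set. In the same list of 12 genes, 7 were above 0, and Acmsd, which diverts the kynurenine pathway from NAD synthesis, stood at 8.37, 8.09 and 8.51 in Balb/c and 9.14, 8.42 and 9.05 in Balb/cBy, a difference of 0.54 (SE 0.20) with overlap through Balb/cBy replicate 2.

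Among further genes of ammonia and glutamate handling, 7 of 11 were above 0. The ammonia transporter Rhbg differed by 0.36 (SE 0.13) and asparagine synthetase, Asns, by 0.39 (SE 0.12), the latter without overlap of the groups. Further urea cycle genes, such as the mitochondrial carriers, had 4 of 9 above 0, with Slc14a1, a urea transporter, at -0.17 (SE 0.13) and the deacylase Sirt3 at -0.24 (SE 0.19). The list of further aromatic genes had 2 of 5 above 0. In it Fahd1, which is not an enzyme of tyrosine breakdown, was at -0.23 (SE 0.15). Qdpr, which restores tetrahydrobiopterin, was at -0.08 (SE 0.12). Further histidine and folate genes had 2 of 6 above 0, with Hnmt, which methylates histamine, at -0.36 (SE 0.17) and Carnmt1, which makes anserine from carnosine, at -0.25 (SE 0.13). None of these 4 lists with their 31 genes held a gene past the threshold, and Asns and Rhbg were the genes with an unadjusted p under 0.05.

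Further serine and glycine genes had 5 of 14 above 0. Dao, D-amino acid oxidase, differed by -0.28 (SE 0.12) without overlap of the groups, and Dld, a subunit that glycine cleavage shares with other complexes, by -0.34 (SE 0.16). Further sulfur genes had 6 of 18 above 0, with Mtrr, which keeps methionine synthase active, at 0.32 (SE 0.15) and Gclc, of glutathione synthesis, at -0.27 (SE 0.17). The proline and lysine list of neighbouring steps had 2 of 10 above 0, with Hoga1, of hydroxyproline breakdown, at -0.26 (SE 0.21) and Crym at -0.16 (SE 0.13). Got2, one of the 35 genes, is counted in this last list, and some other genes stand in more than 1 list. Single arrays carried much of several of these values. Without Balb/cBy replicate 1 Sirt3 was at -0.03 and Hoga1 at -0.01. Without Balb/c replicate 3 Fahd1 was at -0.06 and Gclc at -0.06. Slc14a1 was at -0.05 without Balb/cBy replicate 2, and Crym at -0.02 without Balb/c replicate 1.

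Of 21 genes known as regulators of amino acid breakdown, 8 were above 0, 5 had groups without overlap (7.83% of all genes), and 0 passed the threshold. The 5 were Cebpa, Fgf21 and Tfeb, with lower values in Balb/cBy, and Atf4 and Ddit3, with higher values. Cebpa, a transcription factor of hepatocytes on which the expression of Cps1 and other urea cycle genes is known to depend, stood at 11.25, 11.30 and 11.48 in Balb/c and at 10.83, 11.01 and 11.10 in Balb/cBy. Each Balb/cBy array was below each Balb/c array, with a difference of -0.36 (SE 0.11) and an adjusted p of 0.999 in limma. Atf4, the transcription factor of the amino acid response, differed by 0.34 (SE 0.11), also without overlap.

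The spread between mice of a strain was wide next to the difference of the strains. The median absolute difference of the 35 genes was 0.12, against 0.08 for all genes and 0.11 for genes in the upper quartile (25%) of mean level. The median SD within strains of the 35 genes was 0.20, against 0.14 for all genes. It was 0.18 for genes in the upper quartile, where 33 of the 35 lie. For the 35 genes 18 had their lowest value of all 6 arrays in Balb/cBy replicate 1, which is 51.4%, against 14.7% of all genes and 26.9% of genes in the upper quartile. These included Cps1 and Arg1 of the urea cycle, Gpt and Glud1, Tdo2 and Haao, the 4 histidine genes, Amt, the sulfur genes Cth, Mat1a and Gnmt, and Oat, Prodh, Prodh2 and Aldh4a1. No aromatic gene was lowest there. Balb/c replicate 2 was lowest for 11 genes, or 31.4%, against 33.2% of genes in the upper quartile, among them Hpd, Hgd and Fah. Balb/cBy replicate 3 was highest for 11 genes, or 31.4%, against 8.86% of all genes and 11.5% of the upper quartile, and lowest for 0. The 102 further genes were lowest in Balb/cBy replicate 1 in 42.2% of cases and highest in Balb/cBy replicate 3 in 11.8%. This order of the arrays was noticed in the data and has no test.

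**Figure D3:**
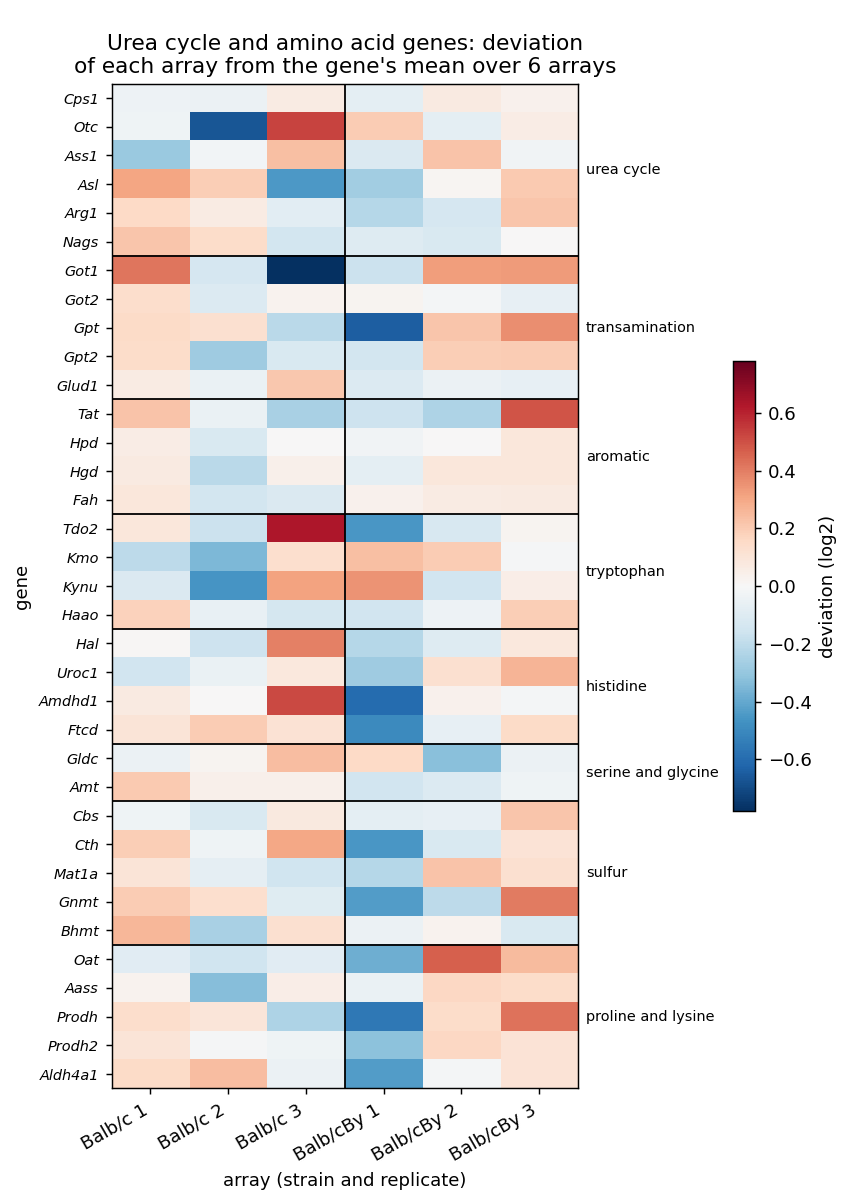
Deviation of each array (columns) from the mean of the gene over 6 arrays (colour, log2) for the 35 genes (rows), in blocks by pathway. Balb/cBy replicate 1 is mostly blue, with 18 genes at their lowest value, and no gene has its lowest value in Balb/cBy replicate 3.

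Pathway means showed the same spread. The mean deviation of the histidine genes from their own average was 0.01, 0.00 and 0.28 in Balb/c replicates 1, 2 and 3 and -0.40, 0.00 and 0.12 in Balb/cBy replicates 1, 2 and 3. For proline and lysine genes it was 0.07, -0.03 and -0.07 in Balb/c and -0.35, 0.18 and 0.21 in Balb/cBy, so that Balb/cBy held both extremes. The tryptophan genes had their extremes in Balb/c, at -0.26 in replicate 2 and 0.24 in replicate 3. The mean of the urea cycle genes moved least, from -0.10 in Balb/cBy replicate 1 to 0.08 in Balb/cBy replicate 3. Its single genes were not steady, as opposite movements cancelled in the mean. In Balb/c replicate 3 Otc and Ass1 had their highest value, while Asl and Nags had their lowest. The 2 glycine cleavage genes were the only pathway whose array means did not overlap, from 0.03 to 0.14 in Balb/c and from -0.22 to 0.00 in Balb/cBy.

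**Figure D4:**
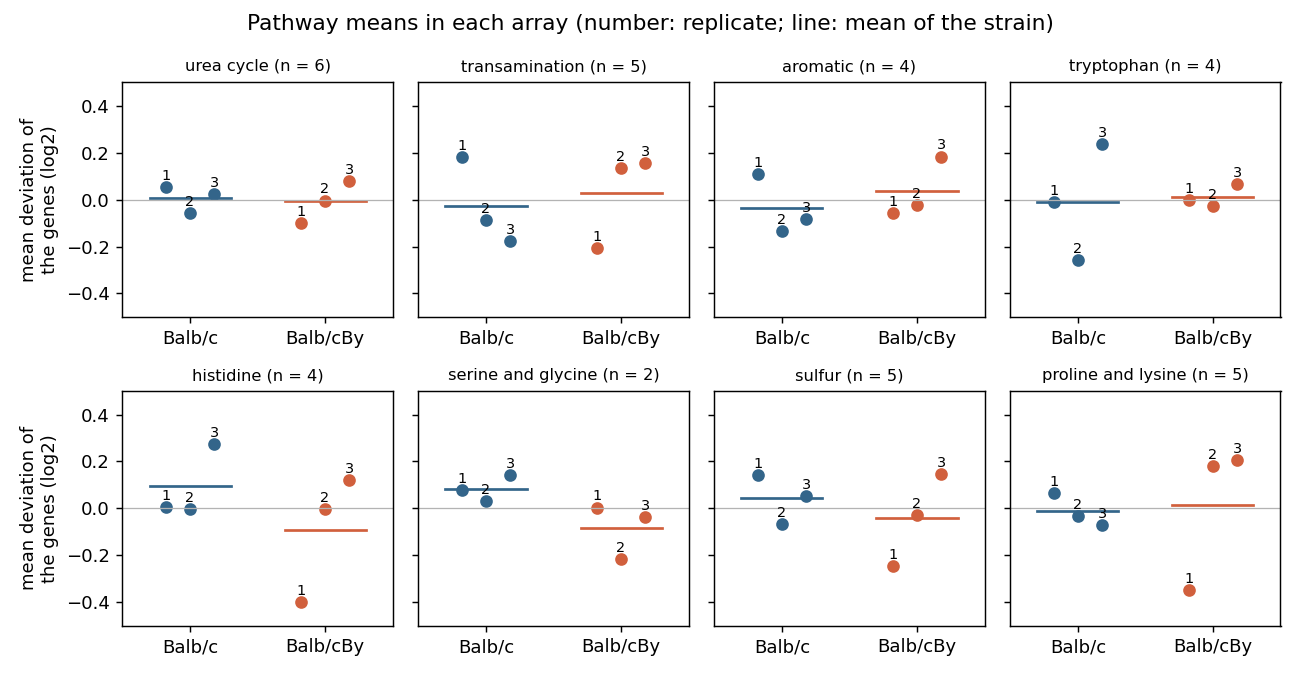
Mean deviation of the genes of each pathway (y axis, log2) by strain, with circles as arrays numbered by replicate and lines as strain means. Balb/cBy replicate 1 is low for histidine (-0.40) and for proline and lysine (-0.35), and the strains overlap in every pathway but serine and glycine.

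**Figure D5:**
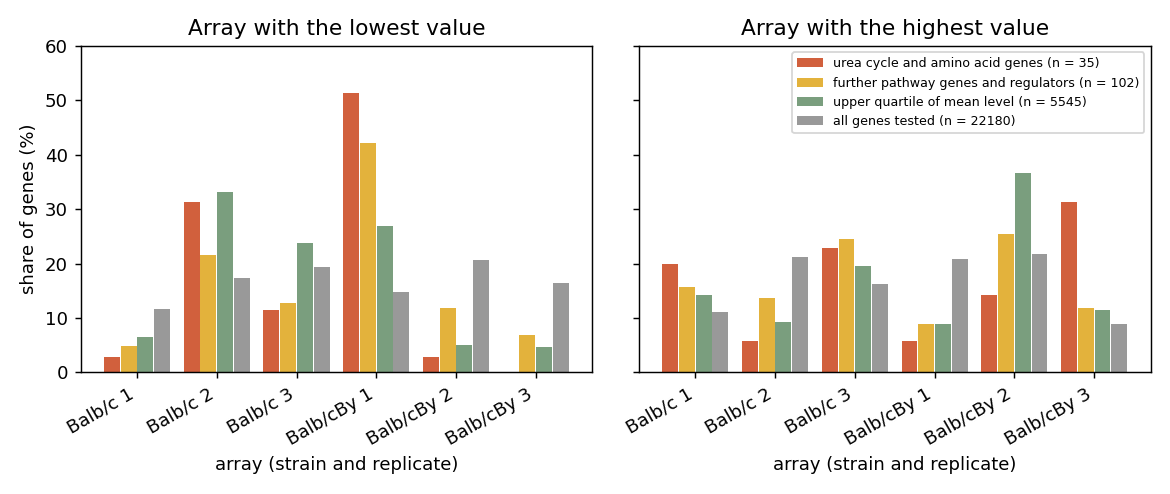
Share of genes (y axis, %) whose lowest value (left) or highest value (right) lay in each array (x axis), for the 35 genes, the 102 further genes, genes in the upper quartile of mean level, and all genes. Balb/cBy replicate 1 holds the lowest value of 51.4% of the 35 genes, of 26.9% of the upper quartile and of 14.7% of all genes.

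Markers of liver zones and of other cells were read beside these values. Periportal hepatocyte markers, the zone of most urea cycle and histidine enzymes, had 4 of 10 above 0 and a median of -0.10, and their log2 summed level ran from 14.81 to 15.02 in Balb/c and from 14.76 to 15.02 in Balb/cBy. Their lowest array was Balb/cBy replicate 1, as for the 35 genes. Pericentral markers had 10 of 15 above 0 and a median of 0.15, with summed levels from 15.75 to 15.89 and from 15.84 to 16.01. Glul, the glutamine synthetase that captures ammonia around the central veins, stood at 11.77, 11.76 and 11.71 in Balb/c and at 11.86, 12.03 and 11.92 in Balb/cBy. Its groups did not overlap, and its difference was 0.19 (SE 0.09, adjusted p = 0.999 in limma). Glul had 2 probe sets, of which the brighter was used, and the other was not compared. Hal stands in the periportal list and Oat in the pericentral one.

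The macrophage list had 8 of 12 above 0, with summed levels from 13.21 to 13.88 in Balb/c and from 13.60 to 13.94 in Balb/cBy. The stellate cell list had 11 of 12 above 0, from 13.28 to 13.71 and from 13.58 to 13.95. For T, B and NK cells 1 of 12 genes was above 0, from 11.28 to 11.44 and from 11.17 to 11.22. Neutrophil markers had 8 of 10 above 0, from 10.88 to 11.08 and from 11.00 to 11.18. Many genes of these 2 lists read low. Only 7 of 12 T, B and NK cell genes and 6 of 10 neutrophil genes lay above the lower quartile of gene means, 7.25. Adipocyte markers had 3 of 5 above 0, from 10.49 to 10.79 and from 10.36 to 11.26. Their summed level was lowest in Balb/cBy replicate 1 and highest in Balb/cBy replicate 3. These markers did not move together. Cidec differed by 0.52, Retn by 0.34 and Adipoq by 0.29, while Plin1 and Lep were at -0.04 each. Endothelial markers had 5 of 10 above 0, cholangiocyte markers 3 of 7, erythroid markers 2 of 2, and markers of exocrine pancreas and kidney 1 of 7. Of the cholangiocyte markers 5 of 7 lay above the lower quartile, and of those of pancreas and kidney 4 of 7. The part of these cells in the values of the 35 genes was not tested.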

How the data were processed

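Liver RNA of 6 mice was measured on 1-colour Affymetrix arrays, from 500 ng of total RNA each per the labels' protocols. For each probe set the authors deposited RMA values on a log2 scale. RMA is named in the submitters' processing notes, and the scale was inferred from the range of the values. Which RMA version and genome build were used is not given in the sources used here. Of 41345 probe sets, 23521 had 1 gene symbol in GEO's platform annotation, 1814 had several and 16010 were unnamed here. This left 22180 genes, of which 1082 had several probe sets. No filter was applied, and all 35 measured genes lay above the lower quartile of gene means. Groups came from the sample titles, which call the arrays biological replicates.

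Balb/cBy was compared with Balb/c in limma 3.58.1 (lmFit, eBayes; R 4.3.3) without covariates, and p-values were adjusted by Benjamini-Hochberg over the whole gene table. The script was tested on simulated data. No label says that replicate numbers pair the arrays, and the main fit used no pairing. The deviations of same-numbered arrays correlated at -0.32, -0.20 and -0.23, which cannot decide whether a pairing existed. Values in every array are given for Cps1, Ass1, Arg1, the 2 genes of each pathway with the smallest p and any gene without overlap. Of each further list, the 2 genes with the smallest p are named. Glul, Fgf21, Tfeb and Ddit3 were named beyond this rule, and the upper quartile of mean level was added for comparison, after values were seen. The genes and lists were chosen with earlier results of these data known, so lists have counts and medians and no test. Alternatives were the replicate block, recentring, a repeated quantile normalization, a filter, the mean of all probe sets, a trended and robust variance, array weights, no moderation, and leaving out each array.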

Additional observations from a re-analysis of the deposited data

How the results depend on the processing

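The count of genes past an adjusted p of 0.05 was 0 in the fit as reported and under every alternative but array weights, which gave 12, and the omission of single arrays, which gave 0 to 3. None of these calls was among the 35 genes, and 833 genes had an unadjusted p under 0.05. The count of the 35 genes with an unadjusted p under 0.05 was 1 with the replicate block (Amdhd1), 3 with a repeated quantile normalization (Amdhd1, Amt and Cth), 2 with array weights (Amt and Oat), 1 without moderation (Amt), and 0 to 3 when arrays were left out. The replicate block changed no other call. With a repeated quantile normalization 21 of the 35 genes were below 0 rather than 17, and their median was -0.06. That setting turned the sign of Cps1 (-0.031), Haao (-0.060), Cbs (-0.011) and Prodh (-0.040), the mean of all probe sets that of Got2 (0.0074), and array weights those of Gpt (0.13), Gnmt (0.040) and Prodh2 (0.016). Array weights also turned the medians of urea cycle (0.024), transamination (0.13) and sulfur genes (0.040), and gave -0.069 for histidine against -0.15 for serine and glycine genes. A repeated quantile normalization turned that of proline and lysine genes (-0.040), and the mean of all probe sets that of transamination genes (0.0074). Recentred arrays turned that of urea cycle genes (0.0026). The cause was not tested.

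Leaving out each array in turn also turned signs near 0. The differences then ran from -0.080 to 0.18 for Ass1, from -0.27 to 0.11 for Asl, from -0.10 to 0.024 for Got2, from -0.23 to 0.27 for Gpt, from -0.24 to 0.017 for Bhmt, from -0.12 to 0.11 for Prodh2, from -0.013 to 0.060 for Cps1. They ran from -0.19 to 0.41 for Otc, from -0.0085 to 0.081 for Hpd, from -0.025 to 0.12 for Hgd, from -0.014 to 0.37 for Kynu, from -0.089 to 0.098 for Haao, from -0.17 to 0.19 for Tat. They ran further from -0.20 to 0.29 for Prodh, from -0.40 to 0.021 for Gnmt, from -0.15 to 0.028 for Qdpr, from -0.0051 to 0.21 for Mat1a, from -0.036 to 0.24 for Uroc1, from -0.044 to 0.10 for Cbs. Pathway medians kept their sign for aromatic genes, from 0.018 to 0.15, histidine genes, from -0.33 to -0.094, and serine and glycine genes, from -0.21 to -0.10. They ran from -0.071 to 0.055 for urea cycle genes, from -0.038 to 0.27 for transamination genes, from -0.018 to 0.16 for tryptophan genes, from -0.13 to 0.021 for sulfur genes, from -0.098 to 0.23 for proline and lysine genes. The transamination median was highest without Balb/cBy replicate 1. Over all 35 genes the median ran from -0.089 to 0.066. With 3 mice a strain and a median SE of 0.14 for these genes, small differences could not be told from the spread between mice.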

Other observations

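Of the 35 genes, Nags and Got2 had a further probe set each. The second set of Nags, at a mean of 9.03, differed by -0.02 (SE 0.09), against -0.14 (SE 0.12) for the set used. The second set of Got2, at a mean of 8.12, differed by 0.05 (SE 0.11), against -0.04 (SE 0.10) for the set used. Genes in the upper quartile of mean level had 3544 of 5545 differences above 0 and a median of 0.05, while the 35 genes had 18 above 0 and a median of 0.01. This was noticed after the values were seen and has no test.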
